A study of Mus musculus with 8 samples.

Results

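The laminins, nidogens and perlecan are the glycoproteins and the proteoglycan that, with type IV collagen, build the basement membrane, and 9 of their genes were followed in mouse lung fibroblasts. They were the alpha chain genes Lama2, Lama4 and Lama5, the beta chain genes Lamb1 and Lamb2, the gamma chain gene Lamc1, the nidogen genes Nid1 and Nid2, and Hspg2, which encodes perlecan. Each was taken by its symbol from a deposited table of 54532 entries, and all 9 were found and tested. The study compared primary lung fibroblasts (pFBs) of female mice on a C57/black background, either wild type (WT, 4 libraries, WT1 to WT4) or homozygous for a human IGFBP5 transgene, labelled hIGFBP5 (HOMO, 4 libraries, HOMO1 to HOMO4). The transgene was knocked in with CRISPR/Cas9 under a broadly active Ef1a1 promoter, so it is not limited to fibroblasts in the mouse. IGFBP5 is a secreted protein that binds insulin-like growth factors and extracellular matrix. No pFBs received a treatment, the cultures grew out of minced lung in medium with serum, and neither the ages nor the number of mice are given. The labels do not say that the libraries came from separate animals or cultures, so p-values measure only the spread between these libraries.

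A laminin is a cross-shaped trimer of an alpha, a beta and a gamma chain. The short arms of the chains join into a sheet, and the end of the alpha chain binds integrins, dystroglycan and other receptors on the cell. Nidogen binds the gamma1 chain and links the laminin sheet to type IV collagen and to perlecan, whose heparan sulfate chains hold growth factors. In the lung, fibroblasts and pericytes share in making the alpha4 and alpha2 chains and nidogens, and the alpha5 chain is the main alpha chain of the adult alveolar and vascular basement membranes.

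Reads counted per library ranged from 17236521 to 31987790, and 3 counts corresponded to between 0.0908 and 0.172 CPM (counts on a common library size after TMM scaling), a floor that covers counting error only. Summed over 8 genes, fibroblast markers were high in every library (12515 to 15373 CPM in WT and 13462 to 22790 CPM in HOMO), mostly from Col1a1, Col1a2 and Vim. Pdgfrb (log2 fold change -0.97) and Vim (-0.65) were differentially expressed genes (DEGs) lower in HOMO, by the thresholds given with the results. The other markers were not DEGs, among them Thy1 (-1.62), Col1a1 (0.82) and Col1a2 (0.66), and Lum stood at 4.07 CPM in WT3. The 8 endothelial markers summed to between 2.31 and 8.13 CPM over both genotypes, with Tie1, Emcn and Cldn5 at 3 or fewer counts in every library. The 8 epithelial markers summed to between 1.43 and 35.8 CPM, with Nkx2-1 at that floor. Krt19 made up nearly all of the sum in WT1 and WT2 (35.4 and 28.4 CPM) and was not a DEG. Cdh1 was a DEG higher in HOMO (log2 fold change 2.77), at 0.0 to 0.503 CPM in WT and 1.16 to 2.21 CPM in HOMO. Sftpc had 48 counts in HOMO2 and 99 in HOMO3, and Epcam had 45 and Krt8 96 counts in HOMO4, each above all other libraries. Some libraries were near-identical. The biological coefficient of variation was 7.65% between WT1 and WT2, 4.71% between HOMO1 and HOMO2, and 5.07% between HOMO3 and HOMO4, whereas any other pair within a genotype differed by 30.0 to 56.5%. WT3 and WT4 carried more macrophage marker RNA (7 genes, 1918 and 1130 CPM) than WT1 and WT2 (113 and 144 CPM) or any HOMO library (24.1 to 164 CPM). WT3 also had the highest sum of 8 smooth muscle and pericyte markers (2852 CPM, against 881 to 944 CPM in the other WT libraries and 268 to 1544 CPM in HOMO). The 7 mesothelial markers summed to 239 CPM in WT3 and 148 CPM in WT4, to 58.7 and 53.3 CPM in WT1 and WT2 and to 107 to 155 CPM in HOMO. Of these only Wt1 was a DEG (log2 fold change 3.36, higher in HOMO). The others had mixed signs, positive for Upk3b (0.09), Lrrn4 (0.22) and Krt18 (0.66) and negative for Msln (-0.52), Upk1b (-0.62) and Krt19 (-3.06). Mouse Igfbp5, the endogenous counterpart of the transgene, stood at 409 CPM in WT3, at 4.34 to 9.65 CPM in the other WT libraries and at 1.07 to 2.86 CPM in HOMO. In bulk libraries, fewer cells of a type and less RNA per cell cannot be told apart.

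Among the 9 genes, none passed the thresholds for a differentially expressed gene (DEG) in HOMO against WT with edgeR's quasi-likelihood F test on all 8 libraries. A DEG had a Benjamini-Hochberg adjusted p under 0.05 over all 14150 tested genes and an absolute log2 fold change above 0.6, and 12.1% of tested genes were DEGs. DESeq2 also called 0 of the 9, against 16.5% of the genes with an adjusted p, although Lamb1 had an adjusted p of 0.0392 there and missed only the fold threshold (log2 fold change 0.598). At an unadjusted p under 0.05, 4 of the 9 passed (Lamb1, Nid1, Lama5 and Lama4), against 32.3% of all tested genes. The log2 fold change was positive for 3 genes and negative for 6, with a median of -0.21 beside -0.04 over all tested genes. Only Lamb1 had HOMO and WT libraries that did not overlap in CPM, which held for 27.3% of all tested genes. The count rested on WT3, as described after the values of each gene.

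The promoters of Lamb1, Nid1 and Lama5 are shown here because these genes had the lowest p-values of the 9, with Lamb1 opposite in sign to the others. The bases are those of RefSeq on GRCm38.p6 that lie before the first base of the gene in both RefSeq and GENCODE M21, with each GC box (GGGCGG on either strand) in capitals. They cover chr12:31265043-31265233 on the plus strand for Lamb1, chr2:180225860-180226109 on the minus strand for Lama5 and chr13:13437352-13437550 on the plus strand for Nid1.
Lamb1: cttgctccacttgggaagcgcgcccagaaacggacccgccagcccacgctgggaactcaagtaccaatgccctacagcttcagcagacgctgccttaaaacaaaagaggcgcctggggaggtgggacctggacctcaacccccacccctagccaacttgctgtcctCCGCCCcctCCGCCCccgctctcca
Lama5: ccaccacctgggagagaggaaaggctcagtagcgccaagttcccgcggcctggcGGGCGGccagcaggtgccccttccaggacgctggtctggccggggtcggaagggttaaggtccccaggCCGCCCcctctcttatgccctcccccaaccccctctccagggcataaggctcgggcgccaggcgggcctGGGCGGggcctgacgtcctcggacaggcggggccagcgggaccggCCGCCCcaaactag
Nid1: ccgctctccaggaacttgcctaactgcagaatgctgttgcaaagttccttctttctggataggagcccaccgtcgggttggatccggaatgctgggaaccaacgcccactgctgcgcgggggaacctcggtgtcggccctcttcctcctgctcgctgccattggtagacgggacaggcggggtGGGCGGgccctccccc
RefSeq windows of 250 bases before the start were at hand for 6 of the 9 genes, all but Lama4, Lamc1 and Nid2. A GC box stood in 4 of these 6 windows, with 5 in Hspg2, 4 in Lama5, 2 in Lamb1 and 1 in Nid1, and in 32.7% of 32851 windows of all genes. Lama2 and Lamb2 had none, and their windows held 47.2 and 43.6% G and C, against 62.0 to 72.4% in the other 4 and a median of 52.4% over all windows. The letters GCGNGGGCG, which EGR1-type zinc fingers bind and which can overlap a GC box, stood once in the Lamb1 window, in none of the other 5 and in 4.7% of all windows. TATAAA on either strand stood in none of the 6 and in 12.4% of all windows. These matches are descriptions of letters.

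Levels between genes were compared as counts per kilobase of exon, scaled to the same total in each library over all matched entries. On this scale Nid2 had the highest mean over the 8 libraries (633), followed by Nid1 (293), Lamb1 (195), Hspg2 (193), Lamb2 (183), Lamc1 (131), Lama5 (99.6), Lama4 (27.3) and Lama2 (2.23). Every library had Nid2 above the highest Nid1 value (446 to 903 against 183 to 411). Nid1 and Lamb1 overlapped, and the 5 genes Lamb1, Hspg2, Lamb2, Lamc1 and Lama5 each overlapped their neighbours in this group. Lama5 (63.0 to 171) did not overlap Lama4 (3.86 to 50.9), nor did Lama4 overlap Lama2 (0.836 to 3.52). The pFBs of both genotypes thus had transcripts of both nidogens, perlecan, both beta chains, gamma1 and alpha5 at levels within about an order of magnitude, and little of the alpha2 chain.

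Positions that follow are those of the whole gene in GENCODE M21 on GRCm38. Lama5 (chr2:180176373-180225859, minus strand) encodes the alpha5 chain, a strong ligand for alpha3 and alpha6 integrins. It stood at 506, 518, 251 and 292 CPM in WT1 to WT4 and at 279, 273, 194 and 208 CPM in HOMO1 to HOMO4. WT1 and WT2 were the highest libraries, WT4 was just above the HOMO range and WT3 lay inside it. The means were 392 ± 140 CPM in WT and 239 ± 43.7 CPM in HOMO (SD, n = 4 each). The log2 fold change was -0.72 (SE 0.27), and its adjusted p in edgeR was 0.108.

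Lama4 (chr10:38965515-39110188, plus strand) encodes the alpha4 chain, a short-armed chain typical of vessels and mesenchymal cells. Its levels were 36.3, 37.8, 122 and 14.3 CPM in WT and 102, 98.4, 165 and 161 CPM in HOMO. WT1, WT2 and WT4 were far below every HOMO library, and WT3 stood between the HOMO pairs. WT3 exceeded WT4 by 8.55-fold, the widest range within a genotype among the 9 genes. Lama4 had the largest difference of the 9 (52.7 ± 47.7 CPM in WT, 132 ± 36.5 CPM in HOMO, log2 fold change 1.32, SE 0.57), and its adjusted p in edgeR was 0.149.

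Lama2 (chr10:26980036-27619758, minus strand) encodes the alpha2 chain, the alpha chain of muscle basement membranes that is lost in a congenital muscular dystrophy. It was the scarcest of the 9, with 15.0, 12.7, 14.2 and 7.86 CPM in WT and 4.55, 3.69, 11.8 and 12.3 CPM in HOMO. HOMO1 and HOMO2 were lower than all other libraries, while HOMO3 and HOMO4 lay among the WT values. The HOMO3 and HOMO4 mean (12.05 CPM) was 2.92-fold the HOMO1 and HOMO2 mean (4.12 CPM), the largest gap between the HOMO pairs among the 9 genes. The means were 12.4 ± 3.19 CPM in WT and 8.08 ± 4.60 CPM in HOMO, and the log2 fold change was -0.62 (SE 0.43), with an adjusted p of 0.347 in edgeR.

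Within each library, the 3 alpha chain genes were also set against each other per kilobase. Lama4 made up 6.22, 6.35, 30.7 and 4.34% of their sum in WT1 to WT4 and 25.4, 25.2, 43.5 and 41.2% in HOMO1 to HOMO4. Lama5 made up 91.9, 92.1, 66.7 and 93.9% in WT and 73.8, 74.1, 54.2 and 56.5% in HOMO. Of these 3 genes WT1, WT2 and WT4 had almost entirely Lama5, whereas WT3 fell inside the HOMO range. Lama1, an alpha chain gene of early embryos and of some epithelia that is described with the other subunits, made up 18.4% of the sum of 5 alpha chain genes in WT4, 0.677 to 2.46% in the other WT libraries and 6.76 to 10.1% in HOMO.

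Lamb1 (chr12:31265234-31329644, plus strand) encodes the beta1 chain, the beta chain of most early and interstitial laminins. It stood at 365, 390, 454 and 507 CPM in WT and at 788, 729, 529 and 550 CPM in HOMO. Every HOMO library was above every WT library, although WT4 and HOMO3 were close. The means were 429 ± 63.8 CPM in WT and 649 ± 129 CPM in HOMO (SD, n = 4 each), a 1.51-fold difference (log2 fold change 0.60, SE 0.19). Lamb1 had the lowest adjusted p of the 9 (0.0668 in edgeR). An exact two-sided permutation test over the 70 assignments of libraries gave p = 0.0286, the smallest it can give. Any gene without overlap reaches this value, so it adds nothing to the lack of overlap. The test also treats near-identical libraries as separate. Lamb1 lies on chromosome 12, whose median tested gene had a log2 fold change of 0.24. In WT4 the median gene of that chromosome stood 0.65 on the log2 scale above the other WT libraries, and the part of this shift in the Lamb1 values was not tested.

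Lamb2 (chr9:108479736-108490530, plus strand) encodes the beta2 chain, found at the neuromuscular junction, in the kidney filter and in vessel walls. Its levels were 215, 238, 617 and 308 CPM in WT and 289, 283, 309 and 314 CPM in HOMO. The HOMO libraries were nearly equal (299 ± 15.1 CPM, against 345 ± 186 CPM in WT), and WT3 was far above every other library. The log2 fold change was -0.21 (SE 0.32) with an adjusted p of 0.688 in edgeR, and without WT3 its sign turned, to 0.23 (SE 0.14, adjusted p 0.273).

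Per kilobase, Lamb1 made up 51.0, 50.1, 31.1 and 50.2% of the 2 beta chain genes in WT and 62.6, 61.2, 51.2 and 51.8% in HOMO. The genotypes did not overlap, but HOMO3 and HOMO4 were less than 2 percentage points above WT1, WT2 and WT4. The Lamb1 to Lamb2 ratio was 1.00 to 1.04 in these 3 WT libraries, 0.451 in WT3, 1.67 and 1.58 in HOMO1 and HOMO2, and 1.05 and 1.07 in HOMO3 and HOMO4.

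Lamc1 (chr1:153218922-153332786, minus strand) encodes the gamma1 chain, which most laminins contain. It was the steadiest of the 9 in WT, with 333, 321, 322 and 316 CPM, and the highest WT library was 1.05-fold the lowest. HOMO1 and HOMO2 were lower (260 and 238 CPM) and HOMO3 and HOMO4 were at the WT level (333 and 317 CPM). The means were 323 ± 7.18 CPM in WT and 287 ± 45.4 CPM in HOMO (log2 fold change -0.17, SE 0.14), with an adjusted p of 0.439 in edgeR. The summed beta chain genes were 1.79 to 3.78 times Lamc1 per kilobase in WT and 2.59 to 4.17 times in HOMO, so the genotypes overlapped.

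Nid1 (chr13:13437551-13512269, plus strand) encodes nidogen-1, the more widespread nidogen. It stood at 743, 718, 445 and 862 CPM in WT and at 432, 383, 471 and 504 CPM in HOMO. WT1, WT2 and WT4 were above every HOMO library, and WT3 was inside the HOMO range. The means were 692 ± 176 CPM in WT and 447 ± 52.1 CPM in HOMO (log2 fold change -0.63, SE 0.21, adjusted p 0.0824 in edgeR). Nid1 lies on chromosome 13, whose median tested gene had a log2 fold change of -0.21.

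Nid2 (chr14:19751265-19811787, plus strand) encodes nidogen-2, which can partly stand in for nidogen-1. Its levels were 600, 663, 1587 and 716 CPM in WT and 1259 and 1153 CPM in HOMO1 and HOMO2, with 713 and 802 CPM in HOMO3 and HOMO4. WT3 was the highest library, and HOMO3 and HOMO4 were close to the other WT libraries. The means were 892 ± 466 CPM in WT and 982 ± 265 CPM in HOMO (log2 fold change 0.14, SE 0.35), with an adjusted p of 0.816 in edgeR. Exons of Rtraf on the opposite strand cover 8.45% of the Nid2 exon bases. Whether the counting used strand is not given in the sources used here, and Rtraf stood at 95.2 to 193 CPM with a log2 fold change of -0.32 (adjusted p 0.350). Per kilobase, the Nid2 to Nid1 ratio was 1.08, 1.24 and 1.12 in WT1, WT2 and WT4, 4.78 in WT3, 3.91 and 4.04 in HOMO1 and HOMO2, and 2.03 and 2.14 in HOMO3 and HOMO4.

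Hspg2 (chr4:137468769-137570630, plus strand) encodes perlecan, the heparan sulfate proteoglycan of basement membranes. It stood at 1124, 1088, 395 and 930 CPM in WT and at 609, 557, 704 and 711 CPM in HOMO. WT1, WT2 and WT4 were above every HOMO library, and WT3 was the lowest of all 8. The means were 884 ± 337 CPM in WT and 645 ± 75.1 CPM in HOMO (log2 fold change -0.45, SE 0.30, adjusted p 0.333 in edgeR). In WT4 the median gene of chromosome 4 stood 0.36 on the log2 scale above the other WT libraries. The part of this shift in the Hspg2 values was not tested.

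**Figure D1:**
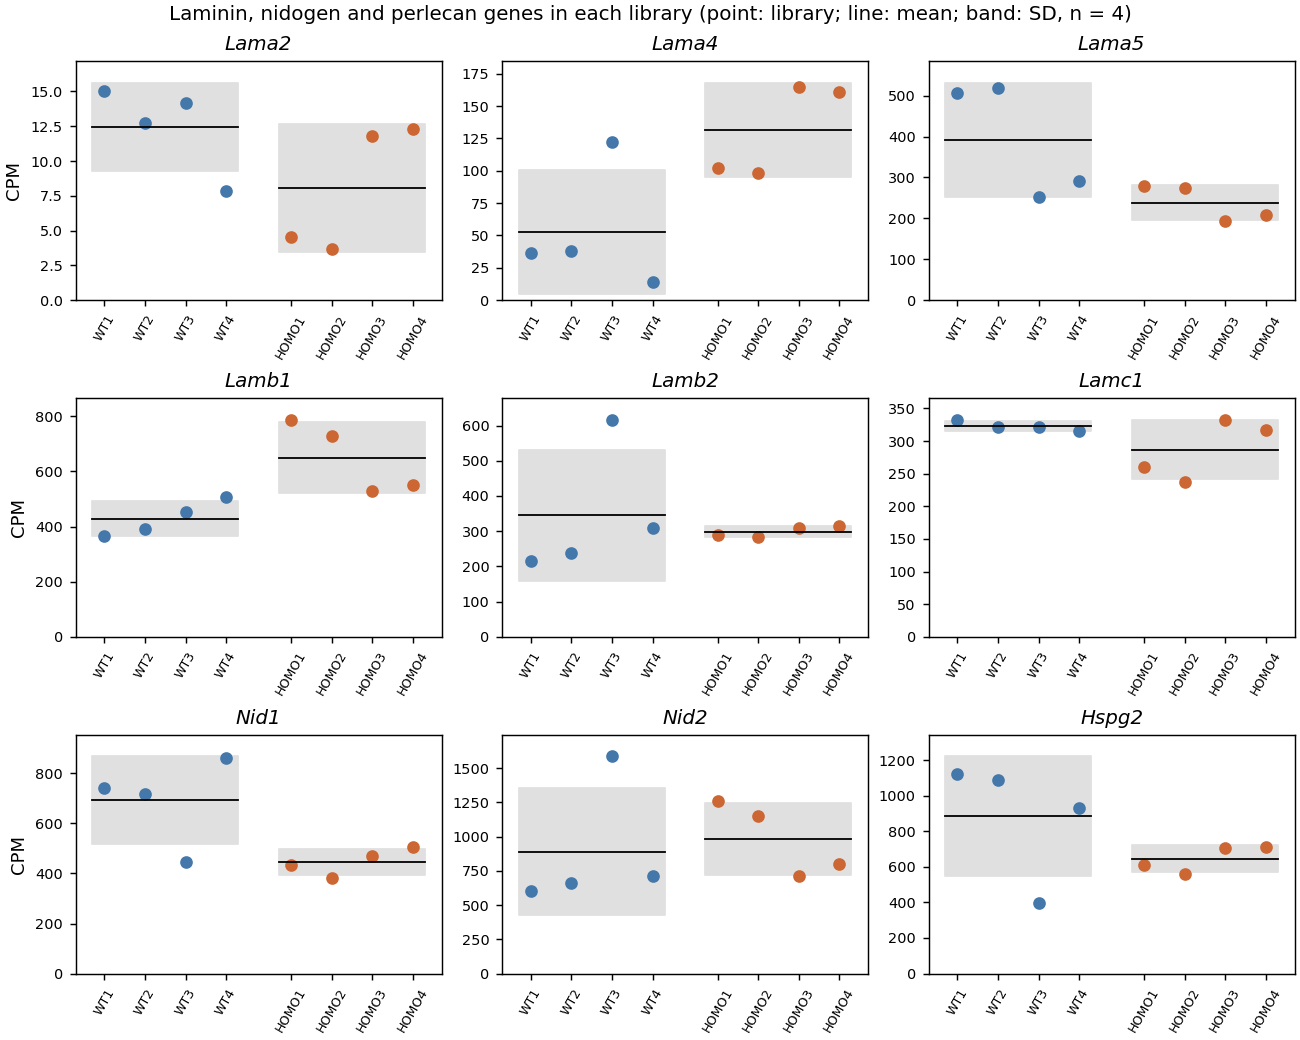
CPM (vertical axis, from 0, a scale of its own in each panel) of each of the 9 genes in each library, WT in blue and HOMO in orange. Lines are genotype means and grey bands the SD (n = 4); WT3 stands away from the other WT libraries for Lama4, Lamb2, Nid2 and Hspg2, and only the Lamb1 panel has no overlap between genotypes.

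**Figure D2:**
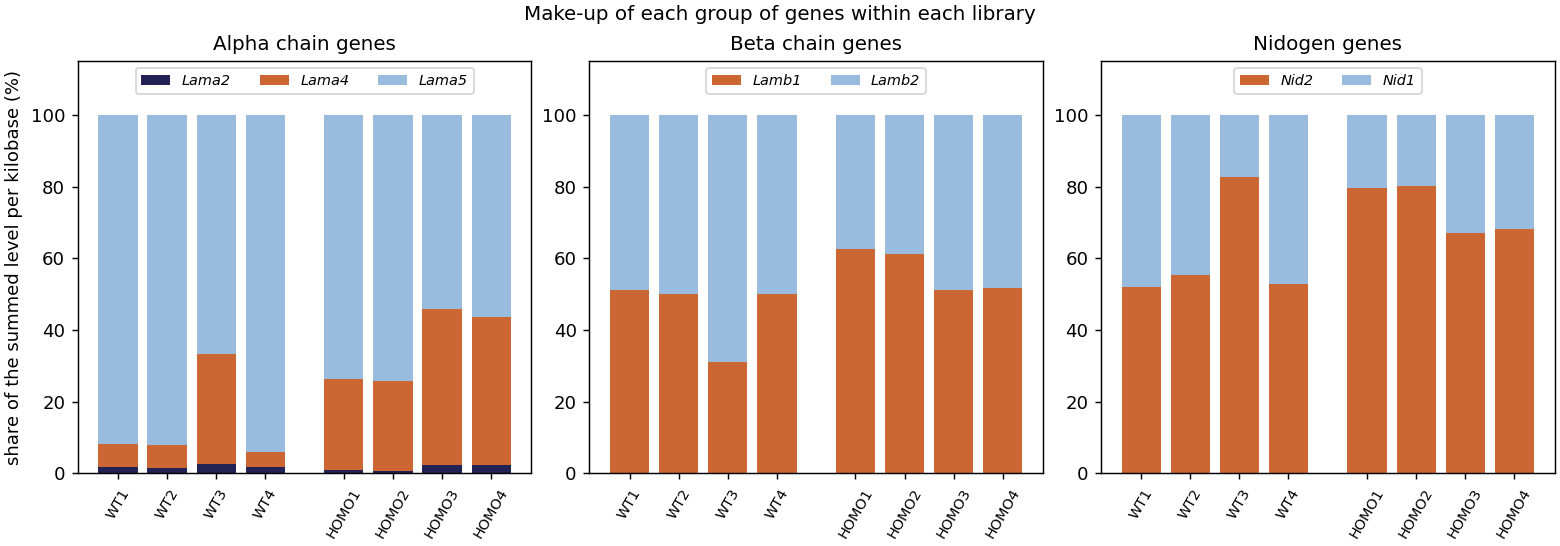
Share of the summed level per kilobase (percent, vertical axis) that each gene takes among the alpha chain genes, the beta chain genes and the nidogen genes in each library. Lama4 takes 4.34 to 6.35% of the alpha chain sum in WT1, WT2 and WT4, 30.7% in WT3 and 25.2 to 43.5% in HOMO.

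WT3 stood away from the other WT libraries in several of these genes. Its level was the highest of all 8 libraries for Lamb2 and Nid2 and the lowest for Hspg2, and for Lama4, Lama5 and Nid1 it was the WT library nearest to HOMO. Without WT3, edgeR called 4 of the 9 genes, against 15.0% of all tested genes. Lama4 was then higher in HOMO (log2 fold change 2.16, SE 0.39, adjusted p 0.0114 in edgeR). Nid1 (-0.79, SE 0.13, adjusted p 0.00907), Hspg2 (-0.70, SE 0.14, adjusted p 0.0146) and Lama5 (-0.88, SE 0.23, adjusted p 0.0375) were lower in HOMO. Leaving out any of the other 7 libraries left the count at 0. Without WT3 and WT4, a setting chosen with earlier results known, 5 genes were called, with Lamb1 (0.78, SE 0.19, adjusted p 0.0239 in edgeR) added to these 4, against 20.9% of tested genes. With limma-voom and sample weights the same 5 were called, against 25.3% of tested genes. That method gave WT3 a weight of 0.0927 and WT4 a weight of 0.164, against 0.910 to 8.14 for the other 6 libraries. In both of these settings the WT side was WT1 and WT2 alone or nearly alone, a near-identical pair (2.24 and 8.14 in weight), so their p-values rest on a spread that may be technical and the settings are not independent of each other. When the near-identical pairs were summed, leaving 3 WT and 2 HOMO units, none of the 9 was called and the lowest adjusted p was 0.473 in edgeR. WT3 also had the highest macrophage, smooth muscle and mesothelial marker sums and the highest mouse Igfbp5 level, and WT1 and WT2 had less mesothelial marker RNA than HOMO. WT4 was high in macrophage marker RNA (1130 CPM) and had 148 CPM of mesothelial marker RNA. WT4 stood on the same side of HOMO as WT1 and WT2 for Lama4, Nid1 and Hspg2. For Lama5 it was just above the HOMO range (292 CPM, against 279 CPM in HOMO1 and 506 and 518 CPM in WT1 and WT2). The part of these markers in the values was not tested.

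**Figure D3:**
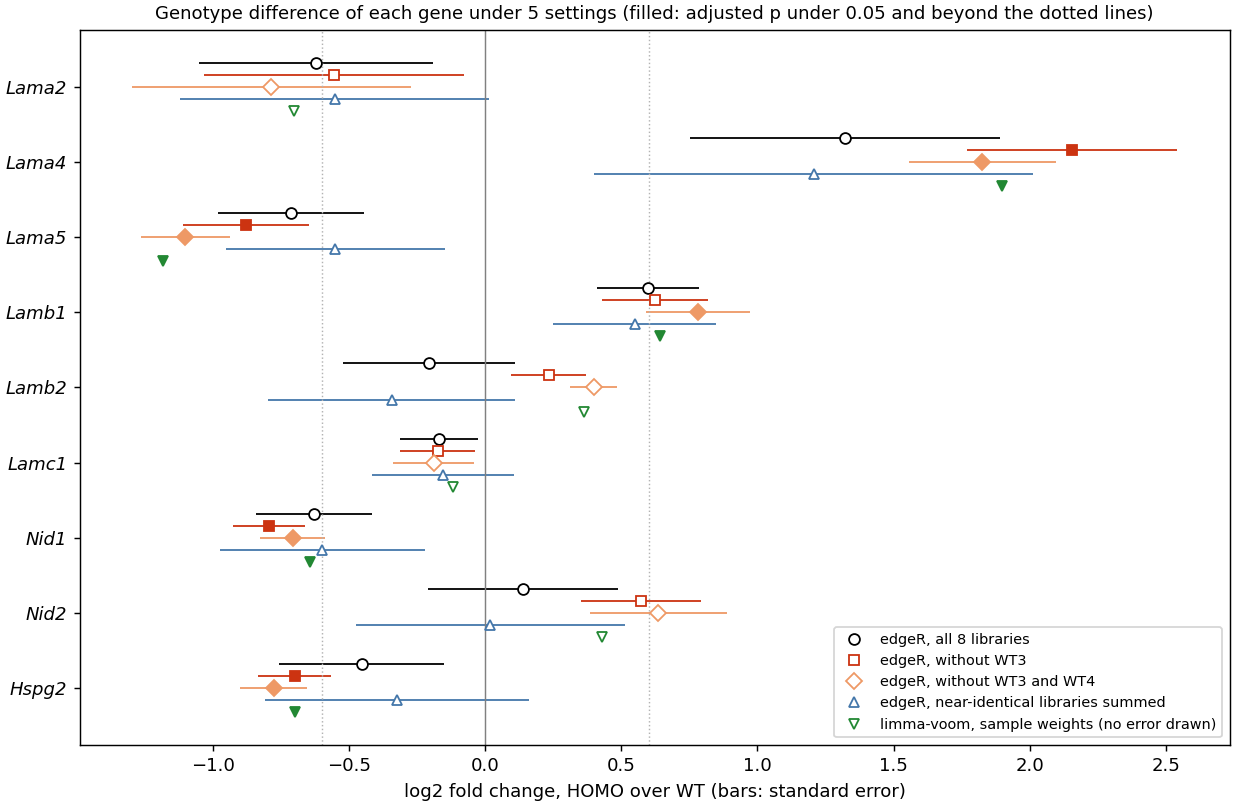
Log2 fold change of HOMO over WT (horizontal axis) of the 9 genes with all 8 libraries, without WT3, without WT3 and WT4, with near-identical libraries summed (edgeR, bars are standard errors) and with limma-voom and sample weights. Filled symbols passed both thresholds; none is filled with all 8 libraries in edgeR, 4 are without WT3 and 5 without WT3 and WT4.

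Of 4 further laminin subunit genes, 2 were tested and neither was a DEG (median log2 fold change 0.60). They were scarcer than most of the 9. Lama3, the alpha3 chain gene, had 1 to 9 counts per library and was not tested by edgeR (exact permutation p = 0.83), and Lamb3, the beta3 chain gene, stood at 0.225 to 1.00 CPM (log2 fold change 0.67, adjusted p 0.468). Lamc3, the gamma3 chain gene, had 0 to 12 counts (exact permutation p = 0.771). Lama1 stood at 11.8, 10.1, 2.18 and 59.5 CPM in WT and at 28.0, 22.8, 34.4 and 35.3 CPM in HOMO. WT3 was the lowest and WT4 the highest library for Lama1, and its log2 fold change of 0.52 (SE 0.78) had an adjusted p of 0.681 in edgeR. Without WT4 the Lama1 value was 1.90 (adjusted p 0.0504), without WT3 and WT4 it was 1.45 (adjusted p 0.00496) and with limma-voom it was 1.55 (adjusted p 6.36e-04), so it passed the thresholds under the last 2 settings. Without WT3 it was 0.14 (adjusted p 0.895), and with near-identical libraries summed it was 0.31 (adjusted p 0.927).

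Among 12 laminin receptor genes, all tested, 1 rose and 3 fell (33.3% DEGs, against 12.1% of all tested genes), with a median log2 fold change of -0.51. Itga3, whose product pairs with beta1 integrin to bind alpha5 laminins, rose from 26.0, 27.4, 59.6 and 36.7 CPM in WT to 146, 151, 93.3 and 96.0 CPM in HOMO (log2 fold change 1.70, adjusted p 0.0120 in edgeR). Itga2, a collagen and laminin receptor chain, fell (-3.89, adjusted p 0.0290), although WT3 (0.689 CPM) was close to HOMO3 (0.558 CPM). Bcam, the Lutheran receptor for alpha5 chains, fell (-1.75, adjusted p 0.0250), with WT4 (7.16 CPM) inside the HOMO range of 5.05 to 7.32 CPM. The syndecan gene Sdc2 fell as well (-0.85, adjusted p 0.0452). Itgb1, the shared beta1 integrin chain and the receptor gene with the highest mean CPM, had a log2 fold change of -0.57 (adjusted p 0.0778).

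Of 26 other basement membrane genes, 21 were tested, 1 rose and 5 fell (28.6% DEGs, against 12.1% of all tested genes). Their median log2 fold change was -0.77. Tinagl1, a matricellular protein gene, fell from 244, 206, 270 and 311 CPM in WT to 70.6, 69.2, 57.3 and 58.6 CPM in HOMO (log2 fold change -2.01, SE 0.16, adjusted p 6.28e-04 in edgeR). The genotypes were far apart and each was tight. Fras1, which anchors epithelial basement membranes during development, rose from 2.01 to 9.45 CPM in WT to 20.7 to 26.9 CPM in HOMO (log2 fold change 2.24, adjusted p 0.0131). Ntn4, a netrin that binds the gamma1 chain and breaks up laminin sheets, fell (-2.14, adjusted p 0.0326), as did the integrin alpha8 ligand gene Npnt (-2.06, adjusted p 0.0364) and the hemicentin gene Hmcn1 (-2.45, adjusted p 0.0286). The sixth DEG was Col18a1, named after its values were seen, whose product carries heparan sulfate and yields endostatin (-1.58, adjusted p 0.00769). Fbln2, which encodes a nidogen-binding fibulin and was named for its mean CPM over the 8 libraries (per kilobase, Lgals1 and Sparc were higher), had a log2 fold change of -1.24 (adjusted p 0.103).

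Perlecan carries heparan sulfate, and of 26 genes for its synthesis and editing 20 were tested (median log2 fold change -0.44). None rose and 2 fell, a share of DEGs below the 12.1% of all tested genes. Ext1, which encodes a chain polymerase, fell from 260, 265, 352 and 342 CPM in WT to 126, 123, 181 and 173 CPM in HOMO (-1.02, adjusted p 0.0130 in edgeR). B4galt7, which builds the linkage to the core protein, fell by 0.86 on the log2 scale (adjusted p 0.0131). Sulf2, a sulfatase that trims heparan sulfate, had the highest mean CPM of the list and a log2 fold change of -0.72 (adjusted p 0.0619). Of 12 genes that glycosylate dystroglycan so that it binds laminin, 11 were tested, none rose and 2 fell (18.2% DEGs, median -0.36). These were Tmem5, now named Rxylt1 (-0.91, adjusted p 0.00557), and B4gat1 (-0.91, adjusted p 0.0359), which shares 85.3% of its exon bases with another gene on its strand, so its value is uncertain. In all, 14 of 66 tested genes of these 5 lists were DEGs, 2 of them higher and 12 lower in HOMO, beside 12.1% of all tested genes, with 841 higher and 875 lower. This count fell to 5 without HOMO1 or without HOMO2 and to 7 without HOMO3 or without HOMO4. Itga3, Fras1, Tinagl1, Tmem5 and Col18a1 stayed DEGs in each of the 8 fits that left out 1 library, but when near-identical libraries were summed none of the 14 did.

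**Figure D4:**
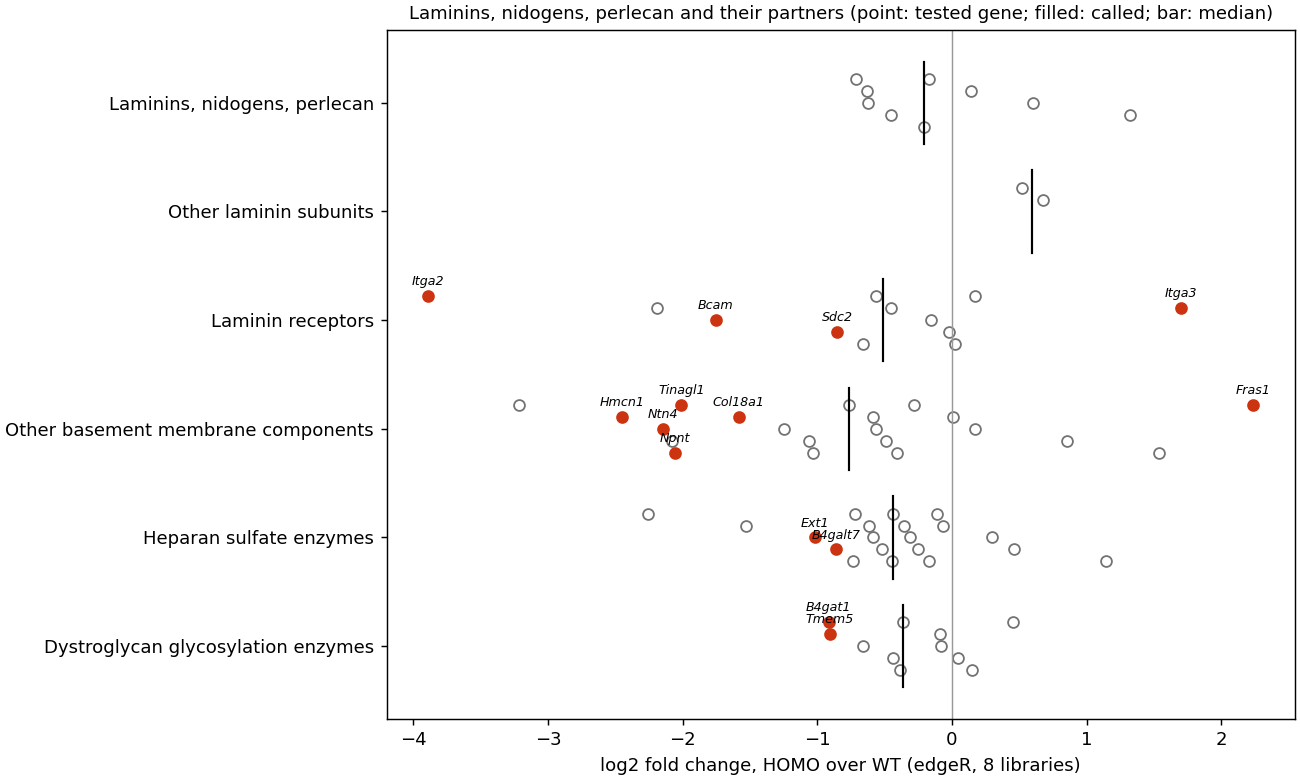
Log2 fold change of HOMO over WT (horizontal axis, edgeR, 8 libraries) of each tested gene, in rows for the 9 genes and for the 5 lists of partner genes. Filled red points are DEGs and bars are list medians; no point is filled in the top row, and 12 of the 14 filled points below lie to the left of 0.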

How the data were processed

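RNA of 8 libraries of pFBs (4 WT, 4 HOMO) was sequenced from poly-T purified mRNA as paired ends. The authors used fastp for trimming, STAR for alignment to mm10 and featureCounts for counting, and deposited raw counts per gene symbol, which carry an unexplained "outlierout" label. The submitters' processing notes also name CASAVA and DESeq2. Of 54532 entries, 53661 matched 1 gene of GENCODE M21 (GRCm38) by symbol, for exon lengths and positions. All 8 columns were used and 0 were left aside. Depth ranged from 17236521 to 31987790 counts per library, and scarce genes had few counts, such as 1 to 9 for Lama3 and 0 to 12 for Lamc3.

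Counts were analysed in R 4.3.3 with edgeR 4.0.16 (TMM, filterByExpr by genotype, glmQLFit and glmQLFTest, 14150 genes), DESeq2 1.42.0 and limma 3.58.1, and in Python 3.11.15 with pandas 2.3.3, numpy 2.4.6 and, for figures, matplotlib 3.10.9. CPM are on TMM-scaled sizes of the tested genes, with a prior count of 2 in log2 CPM. An SE is the size of the log2 fold change over the square root of F. Genes outside the filter, and Lamb1 inside it, had a two-sided exact permutation test on CPM. The tests were checked on simulated data with independent libraries. That check does not cover the near-identical pairs found here. Alternatives were other tests, normalizations, filters, a replicate block, summed near-identical libraries and left-out libraries. The genes named are the 9, the other laminin subunits and, from each partner list, up to 5 DEGs with the largest log2 fold change and the gene with the highest mean CPM. A few genes of these lists are not reported here, and the lists are counted without them. The genes and lists were chosen with earlier results of these data known. The human transgene itself was not analysed here. Promoter bases are those of RefSeq (GRCm38.p6).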

Additional observations from a re-analysis of the deposited data

Results flagged for a closer look

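Of 58 sets of 4 libraries of a genotype examined for a library far from the other 3, 3 had one. For 4 independent values chance gives about 1 in 20. Near-identical libraries are not independent, so that rate cannot be applied here. Lamb3 in WT4 stood at 0.026 log2 CPM, above -1.67 to -1.529 in the other WT libraries. Bcam in WT4 was at 2.858 log2 CPM, below 4.676 to 4.727 and close to the HOMO libraries. Lamc3 in HOMO4, with 0 counts, was at -3.488 log2 CPM, below -1.145 to -0.787 in the other HOMO libraries. None of the 9 laminin, nidogen and perlecan genes passed this rule. WT3 still stood apart in log2 CPM for Hspg2 (8.626, against 9.861 to 10.135 in the other WT libraries) and Nid2 (10.633, against 9.228 to 9.485).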

How the results depend on the processing

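DEGs numbered 1716 with all libraries in edgeR, 2913 with DESeq2, 3573 with limma-voom and sample weights, 3117 without WT3 and WT4, and 507 to 2192 without 1 library each, the lower counts being those without HOMO1 (507), HOMO2 (512), HOMO4 (980) or HOMO3 (1040). Near-identical libraries summed gave 0 DEGs in edgeR, with 2057 genes at an unadjusted p under 0.05. For the 9 genes, the count of 0 became 5 with limma-voom and 5 without WT3 and WT4, and ranged from 0 to 4 without 1 library each, with 4 only without WT3. The 14 partner DEGs became 25 with limma-voom, where 25.3% of all tested genes were called, and 0 with libraries summed, where no gene was. They became 5 to 17 without 1 library each. The lowest counts were without HOMO1 or HOMO2, where the fewest genes were called over the whole table. The highest was without WT3, where 15.0% of all tested genes were called. Signs turned for the log2 fold change of Lamb2 (-0.21 with all libraries, 0.36 with limma-voom, 0.40 without WT3 and WT4, and -0.38 without WT1 to 0.23 without WT3) and of Nid2 (0.14 with all libraries, -0.01 without WT1 to 0.57 without WT3), and the other 7 genes kept theirs under each of 16 alternatives. Sizes moved by over 1.5 times without 1 library for Lama2 (-0.62 to -0.38 without HOMO2), Lamc1 (-0.17 to -0.09 without HOMO2), Lama4 (1.32 to 2.16 without WT3) and Hspg2 (-0.45 to -0.70 without WT3). The cause was not tested beyond the libraries left out. With the replicate number as a replicate block, 947 genes, 0 of the 9 and 8 partner genes were called. Deviations of same-numbered libraries correlated at -0.0910, -0.0424, 0.0141 and -0.124, which showed no pairing by number. These values cannot exclude a pairing, because near-identical libraries such as WT1 and WT2 have different numbers. Lama3, Lamb3 and Lamc3 had few counts, and the part of depth in this was not tested.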

Other observations

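Type IV collagen, the other network of the basement membrane, was named here after its values were seen, with negative and positive differences among its tested genes. Col4a1 stood at 1289, 1278, 1263 and 2091 CPM in WT and at 827, 746, 1166 and 1204 CPM in HOMO, and Col4a2 at 848, 835, 1134 and 1596 CPM in WT and 691, 624, 819 and 851 CPM in HOMO. Every HOMO library was below every WT library for Col4a1, and HOMO4 overlapped WT for Col4a2. Their log2 fold changes were -0.59 (adjusted p 0.139 in edgeR) and -0.56 (adjusted p 0.143). Col4a5 stood at 228, 236, 93.4 and 336 CPM in WT and at 523, 481, 293 and 321 CPM in HOMO (log2 fold change 0.86, adjusted p 0.147 in edgeR). Col4a6 stood at 106, 121, 6.60 and 136 CPM in WT and at 384, 330, 169 and 188 CPM in HOMO, without overlap (1.54, adjusted p 0.178), with WT3 far below the other WT libraries. None of these 4 genes was a DEG, and Col4a3 and Col4a4 were too scarce to be tested. Dag1, the dystroglycan gene, stood at 404 to 566 CPM in WT and 342 to 369 CPM in HOMO, without overlap (log2 fold change -0.46, adjusted p 0.0745 in edgeR). Lack of overlap, seen for Col4a1, Col4a6 and Dag1, held for 27.3% of all tested genes.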
